A study of Mus musculus with 12 samples.

Results

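The genes of MHC class I and the immunoproteasome are described here across WT and S513A peritoneal exudate cells (PECs) before and after LPS. The group was chosen by gene name and holds 10 genes, all of them among the 12850 genes of the deposited table: the class I heavy chains H2-K1 and H2-D1, the light chain B2m, the peptide transporter subunits Tap1 and Tap2, the loading factor Tapbp, the immunoproteasome subunits Psmb8, Psmb9 and Psmb10, and the transcriptional activator Nlrc5. All 10 passed the filter on low values. RNA was sequenced from thioglycollate-elicited PECs of C57BL/6 mice, the cells that gather in the peritoneal cavity after an irritant, collected 3.5 days after 2 ml of 4% thioglycollate. The WT mice were compared with Zc3h12aS513A/S513A mice (S513A below), a CRISPR/Cas9 knock-in of Zc3h12a, which encodes Regnase-1, an RNase that degrades mRNAs of inflammatory genes. Cells of each genotype were sequenced without stimulation (0 hr) and after 4 and 8 hr with LPS (100 ng/ml), the lipopolysaccharide of Gram-negative bacteria. The 12 libraries thus form 6 groups of 2. The whole cell preparation was sequenced, ages are not given in the sources used here, and the deposited values hold no base calls, so the substitution was not checked. Nothing states that the 2 libraries of a group come from separate mice, so p values measure the spread between these libraries, which may be technical.

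In almost every nucleated cell, MHC class I molecules carry peptides of intracellular proteins to the cell surface, where CD8+ T cells inspect them. The peptides are cut by the proteasome, whose 3 catalytic subunits Psmb5, Psmb6 and Psmb7 can be replaced by Psmb8, Psmb9 and Psmb10 to form the immunoproteasome, moved into the endoplasmic reticulum by Tap1 and Tap2, and loaded with the help of tapasin (Tapbp) onto a heavy chain paired with β2-microglobulin (B2m). Interferons induce these genes, in part through IRF1, and the class I activator NLRC5 acts with the RFX complex, factors at the X2 box and NF-Y at the X and Y boxes of class I promoters.

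The heavy chains, Tap1, Tap2, Tapbp, Psmb8 and Psmb9 lie on chromosome 17 (GRCm38, GENCODE annotation), within or beside the MHC, and 4 of them are neighbours. Psmb9 (34181987 to 34187764, minus strand), Tap1 (34187553 to 34197225), Psmb8 (34197721 to 34201454) and Tap2 (34203527 to 34216321) lie within 34335 bp. Psmb9 and Tap1 are transcribed in opposite directions, and the annotated genes overlap by 212 bp. Tapbp lies at 33915899 to 33929292, H2-K1 at 33996017 to 34000347 on the minus strand and H2-D1 at 35262730 to 35267499. B2m is on chromosome 2 (122147686 to 122153083), and Psmb10 (105935735 to 105938444, minus strand) and Nlrc5 (94434356 to 94527272) are on chromosome 8. Since reads were mapped as unstranded, reads from the stretch that Psmb9 and Tap1 share cannot be told apart. Stretches of 50 bases that occur in another annotated gene make up 8.79% of the H2-K1 exons, 14.3% of H2-D1, 21.0% of Tapbp, 12.6% of Tap2, 12.5% of Psmb9, 6.47% of Tap1 and 5.83% of Psmb8, and none of B2m, Psmb10 or Nlrc5. The values of the genes with shared stretches carry that uncertainty.

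Promoter windows, from 250 bases before to 50 bases after a RefSeq start (GRCm38.p6), were found for 8 of the 10 genes, with none for Tap2 and Nlrc5. The stretches printed first are the ones that both heavy chains and their light chain share, because these 3 genes were at the highest levels and moved least after LPS. Capitals mark TGACG, the core of the X2 box, and ATTGG, the core of the Y box, on the gene's own strand and with 20 bases between them.
H2-K1, chr17:34000359-34000388, minus strand: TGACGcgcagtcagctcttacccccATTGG
H2-D1, chr17:35262993-35263022, plus strand: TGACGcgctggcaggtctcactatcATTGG
B2m, chr2:122147609-122147638, plus strand: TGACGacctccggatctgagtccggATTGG
The H2-K1 and H2-D1 stretches are identical at 23 of 30 bases, and B2m matches H2-K1 at 13 and H2-D1 at 12, of which the 10 capitals are fixed by the search. Searched on both strands, this spacing was found in 31 of 32851 promoter windows of the table (0.0944%, and 0.193% for listed genes) and in 3 of the 8 genes, H2-K1, H2-D1 and B2m. The spacing was searched after it had been seen in these promoters. TGACG alone was in 20.8% of windows (30.6% for listed genes) and 5 of the 8 genes, and ATTGG alone in 37.4% (37.6%) and 6 of the 8.

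The next stretches hold letters of sites for NF-kB and for IRFs, shown because LPS engages both routes. Capitals mark GGG and CC with any 5 bases between them for NF-kB and GAAA and GAAA with any 2 bases between them for the core of the interferon-stimulated response element (bound by IRFs). Both were searched on both strands, where matches to the NF-kB letters overlap each other.
H2-K1, chr17:34000438-34000467, minus strand, NF-kB: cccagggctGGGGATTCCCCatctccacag
H2-D1, chr17:35262914-35262943, plus strand, NF-kB: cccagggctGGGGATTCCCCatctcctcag
B2m, chr2:122147545-122147574, plus strand, response element then NF-kB: catGAAACTGAAAatGGGAAAGTCCCtttg
Tap1, chr17:34187471-34187500, plus strand, NF-kB: gacgacagaGGGTCCTGCCCtcaatctggg
The NF-kB stretches of H2-K1 and H2-D1 are identical at 29 of 30 bases. The NF-kB letters are common, in 50.8% of all windows, 66.5% of those of listed genes, and 5 of the 8 genes (62.5%). The response element was in 3.44% of windows and in 1 of the 8 genes (B2m). Because Tap1 and Psmb9 start head to head, their windows share 275 of 300 bases. A match describes letters and not a bound site, and these windows are short.

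Before LPS, the genes differed widely in level. Per kilobase of exon, B2m was highest at 3241 ± 922 CPM per kb (mean ± SD over the 4 unstimulated libraries, n = 4), followed by H2-D1 at 1342 ± 210 and H2-K1 at 785 ± 84.9. Tapbp stood at 133 ± 13.8, Psmb8 at 92.5 ± 15.6, Psmb10 at 73.8 ± 16.1 and Psmb9 at 25.4 ± 4.98. Tap1 at 12.9 ± 1.43, Tap2 at 10.5 ± 1.17 and Nlrc5 at 2.48 ± 0.307 came last. In this order the libraries of Psmb8 overlapped those of Psmb10, and those of Tap1 overlapped those of Tap2, whereas the other neighbours did not overlap. At 8 hr B2m was at 4571 ± 994, and H2-D1 (1400 ± 182) and H2-K1 (1351 ± 136) overlapped. Tapbp (444 ± 86.9), Psmb8 (321 ± 67.6) and Psmb10 (278 ± 58.9) overlapped in turn, as did Tap1 (121 ± 19.0) and Psmb9 (104 ± 21.2). Tap2 (47.6 ± 8.32) and Nlrc5 (22.1 ± 5.24) remained the lowest. CPM per kb is the CPM value of a gene divided by the length of its exons.

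Reads on listed genes numbered 9525979 to 12439960 per library, and in single libraries the genes described held from 206 reads (Nlrc5) to 49094 (B2m). All 10 macrophage markers examined were listed, with a summed level of 17936 to 29360 CPM per library. Neutrophil markers (2 of 10 listed) summed to 20.3 to 108 CPM, B cell markers (7 of 8) to 11.1 to 27.3, T and NK cell markers (2 of 10) to 1.11 to 2.64, dendritic cell markers (5 of 7) to 5.40 to 12.1, eosinophil markers (2 of 7) to 3.62 to 18.5, mast cell markers (4 of 6) to 1.76 to 3.84 and mesothelial markers (5 of 6) to 0.812 to 4.01, and no erythroid marker was listed. Among the defining markers not listed were Ly6g and S100a9 for neutrophils, Pax5 for B cells and Cd3e for T cells. In 3 groups the replicates differed by transcript length. In WT at 4 hr the median difference of replicate 1 from replicate 2 ran from 0.47 log2 in the shortest of 5 equal classes of genes to -0.40 in the longest, in S513A at 8 hr from -0.43 to 0.15 and in S513A at 4 hr from -0.27 to 0.22, whereas the groups at 0 hr and WT at 8 hr stayed between -0.09 and 0.06. Results that this touches are given with and without WT replicate 2 at 4 hr and S513A replicate 1 at 8 hr, of the pairs with the largest difference in the shortest class. Values without these libraries, and values with a trend on length and GC content removed from each library, were added after seeing the data.

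Upon LPS stimulation 8 of the 10 genes rose in both genotypes at both times. At 4 hr, taking the mean of the WT and S513A changes, 8 of 10 were higher (adjusted p under 0.05, limma), where 29.1% of the 11885 genes tested were called higher, and their median log2 fold change was 1.24 against 0.02 over all genes. At 8 hr the same 8 genes were higher, against 24.5% of all genes called higher, and 0 were lower, against 21.6% called lower, with a median of 1.85 against -0.0007. H2-D1 and B2m were the genes not called. With WT and S513A taken singly, 8 genes each were called higher at 4 hr (22.6% of genes in WT and 23.1% in S513A), and 9 in WT and 8 in S513A at 8 hr (19.4% and 20.9%). The 4 hr and 8 hr comparisons share the 0 hr libraries. In a bulk preparation, fewer cells of a type and less RNA per cell cannot be told apart. Summed markers of other cells differed between times as well. Over both genotypes eosinophil markers were at 15.3 to 18.5 CPM before LPS and 3.62 to 4.58 after 8 hr, dendritic cell markers at 5.40 to 7.91 and 9.36 to 12.1, B cell markers at 11.1 to 17.8 and 15.5 to 27.3, and neutrophil markers at 20.3 to 54.2 and 33.5 to 102. Members of the dendritic cell sum moved in opposite directions. Mean Ccr7 went from 0.68 log2 CPM in WT and 0.03 in S513A at 0 hr to 2.88 and 2.60 at 8 hr. Mean Clec9a went from 2.17 and 1.59 to 0.30 and -0.10, so this sum is not read as a number of cells. The part of these other cells in the changes was not tested.

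**Figure D1:**
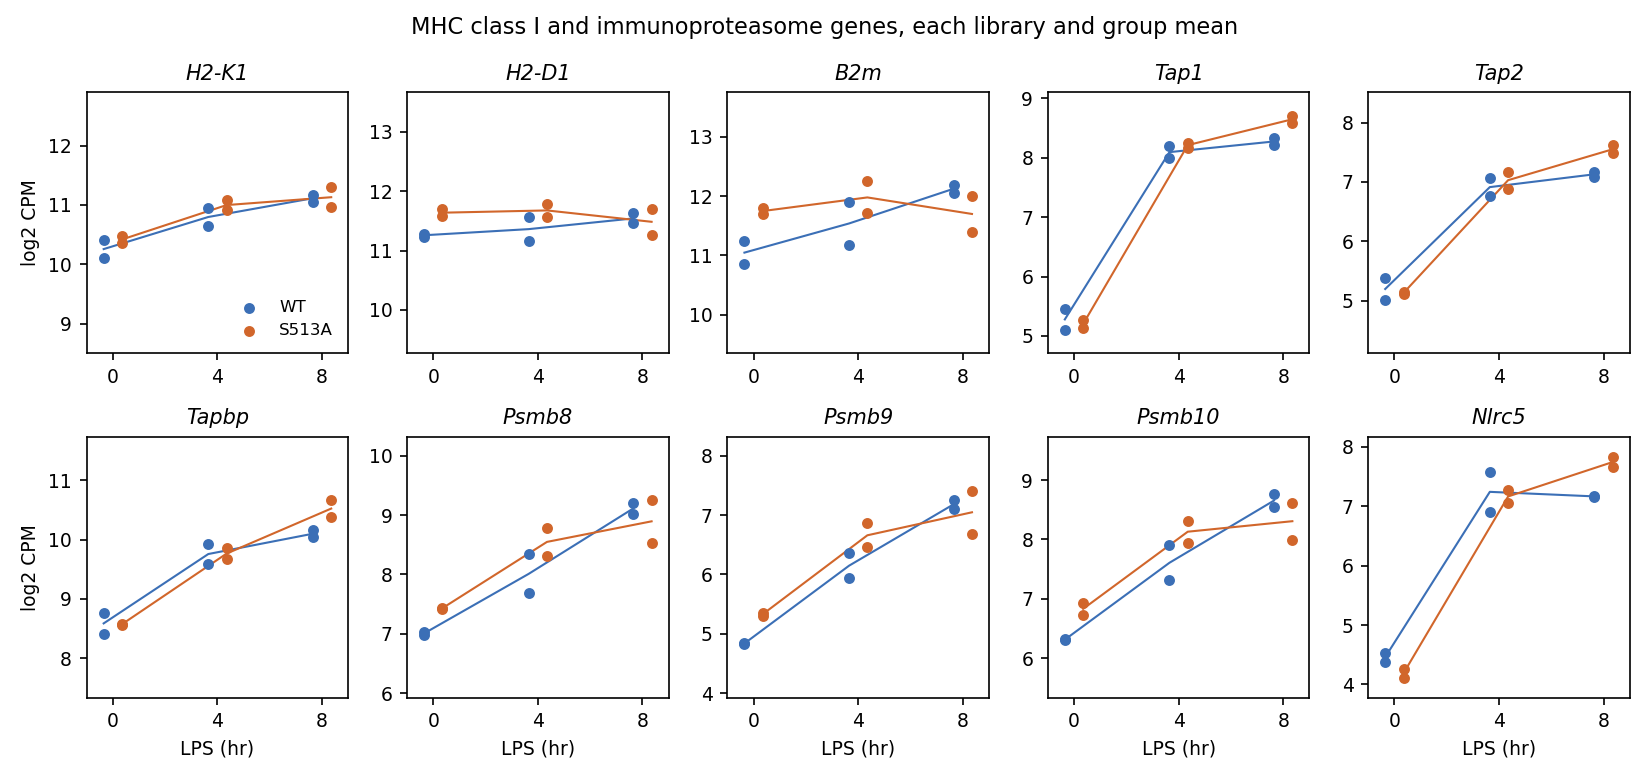
Deposited log2 CPM (vertical axes) of each of the 10 genes against hours of LPS (horizontal axes), with 1 point per library, 2 per genotype and time, and lines through the genotype means. Tap1, Tap2, Tapbp, Nlrc5 and the 3 immunoproteasome subunits lie above their unstimulated libraries at 4 and 8 hr, whereas the H2-D1 points overlap across times.

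The heavy chains presented different pictures. H2-K1 in WT was 10.41 and 10.11 log2 CPM before LPS, 10.94 and 10.65 after 4 hr, and 11.06 and 11.17 after 8 hr. In S513A it was at 10.35 and 10.48, then 10.91 and 11.08, then 10.96 and 11.30. Every stimulated library thus lay above every unstimulated one. Over both genotypes H2-K1 rose 1.47-fold at 4 hr (log2 0.56 ± 0.12 SE, adjusted p = 0.00193) and 1.72-fold at 8 hr (0.78 ± 0.12, adjusted p = 0.000249). The 4 hr value rests on the scaling, since quantile normalization, which forces every library to the same distribution, left a log2 change of 0.09 (adjusted p = 0.548), while at 8 hr it left 0.47 (adjusted p = 0.00578). H2-D1, in contrast, was 11.23 and 11.29 in unstimulated WT cells, 11.56 and 11.16 after 4 hr and 11.46 and 11.63 after 8 hr. In S513A its values were 11.58 and 11.69, 11.57 and 11.78, and 11.27 and 11.70. Libraries of the 3 times overlapped, and the change over both genotypes was 0.07 ± 0.13 on the log2 scale at 4 hr (adjusted p = 0.671) and 0.07 ± 0.13 at 8 hr (adjusted p = 0.715). Under quantile normalization its sign at 4 hr turned, with -0.40 (adjusted p = 0.0106).

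B2m, which pairs with every class I heavy chain, was called higher in WT at 8 hr and not in S513A, and the test of that difference did not pass (below). In WT it was 10.86 and 11.24 before LPS, 11.90 and 11.18 after 4 hr and 12.05 and 12.19 after 8 hr. The S513A libraries were at 11.80 and 11.70, 11.71 and 12.25, and 11.40 and 12.00. The WT libraries at 8 hr lay above those at 0 hr, and the S513A libraries at 8 hr lay on both sides of those at 0 hr. B2m was 2.11-fold higher at 8 hr in WT (log2 1.08 ± 0.28, adjusted p = 0.0119), and 0.967-fold in S513A (-0.05, adjusted p = 0.907), and the change over both was 0.51 ± 0.20 (adjusted p = 0.052). The WT call was lost without WT replicate 1 at 0 hr (0.89, adjusted p = 0.0978) or WT replicate 2 at 8 hr (1.01, adjusted p = 0.0802). B2m has the shortest transcript of the group, 860 bases, and replicate 1 exceeded replicate 2 by 0.72 in WT at 4 hr and fell short of it, at -0.59, in S513A at 8 hr, and at -0.54 in S513A at 4 hr, in the direction of the short genes in each of these groups. With the length and GC trend removed, B2m at 8 hr was higher by 0.47 in WT and by 0.44 in S513A (adjusted p = 0.00158 in S513A).

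**Figure D2:**
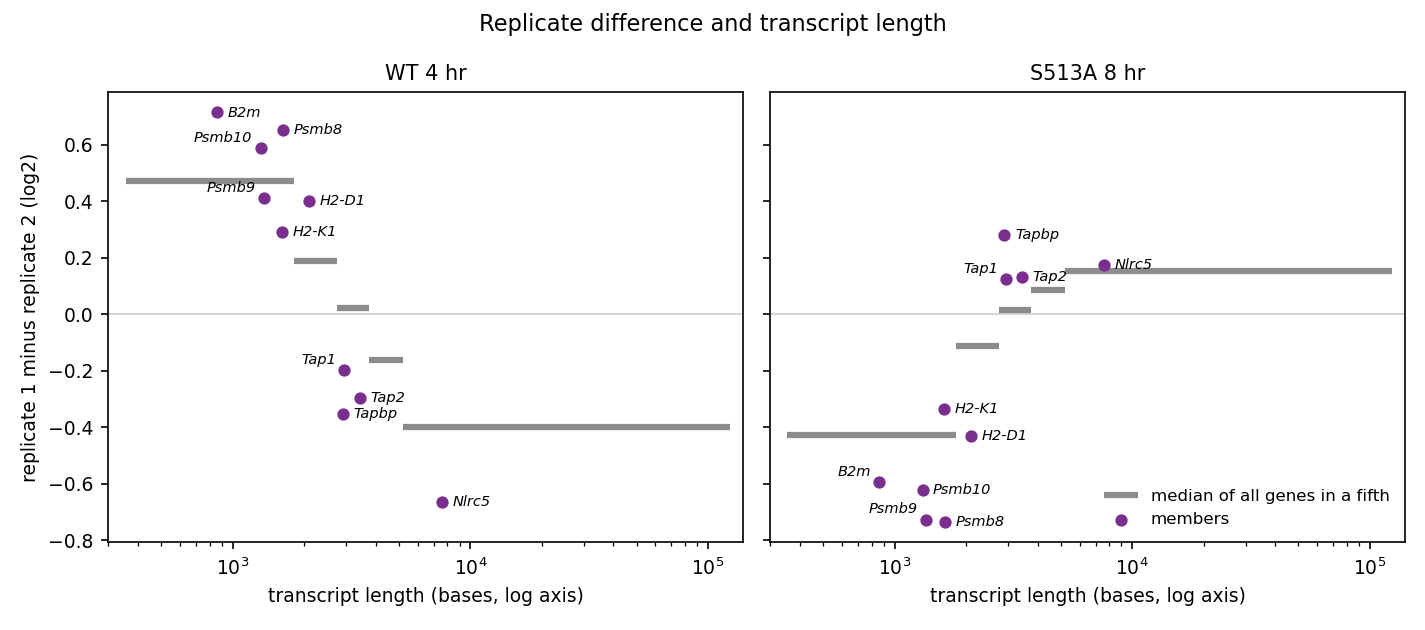
Difference of replicate 1 from replicate 2 (vertical axis, log2) against transcript length (horizontal log axis, bases) in WT at 4 hr and S513A at 8 hr, with the 10 genes as points and the median of all genes in each of 5 length classes as bars. In WT at 4 hr B2m (0.72) is high and Nlrc5 (-0.66) low, and in S513A at 8 hr Psmb8 (-0.73) and B2m (-0.59) are low and Nlrc5 (0.17) is high.

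Over both genotypes the transporter genes and Nlrc5 had the largest changes of the 10. Tap1 was 5.45 and 5.11 log2 CPM in unstimulated WT cells, 8.00 and 8.20 after 4 hr and 8.21 and 8.34 after 8 hr. In S513A it was at 5.14 and 5.26, 8.26 and 8.17, and 8.71 and 8.59. Even the lowest stimulated Tap1 library stood far above the highest unstimulated one. Over both genotypes Tap1 rose 7.54-fold at 4 hr (log2 2.91 ± 0.093, adjusted p = 1.18e-09) and 9.33-fold at 8 hr (3.22 ± 0.093, adjusted p = 9.67e-10). Its partner Tap2 was at 5.38 and 5.01, 6.77 and 7.06, and 7.09 and 7.17 in WT at 0, 4 and 8 hr. In S513A Tap2 was at 5.11 and 5.15, 7.17 and 6.89, and 7.62 and 7.48. It thus rose less than Tap1, by 1.81 ± 0.11 at 4 hr (3.50-fold, adjusted p = 1.43e-07) and 2.18 ± 0.11 at 8 hr (4.52-fold, adjusted p = 4.45e-08), with no test made between the pair.

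Tapbp, which bridges the transporter and the heavy chain, was 8.77 and 8.41 in unstimulated WT cells, 9.58 and 9.93 after 4 hr and 10.04 and 10.16 after 8 hr. In S513A it was at 8.58 and 8.56, 9.86 and 9.67, and 10.66 and 10.38. The 3 times did not overlap within either genotype. The log2 change was 1.18 ± 0.12 at 4 hr (2.26-fold, adjusted p = 7.79e-06) and 1.73 ± 0.12 at 8 hr (3.32-fold, adjusted p = 4.65e-07). Nlrc5, the activator of class I promoters, was 4.53 and 4.38 in unstimulated WT cells, 6.91 and 7.58 after 4 hr and 7.18 and 7.15 after 8 hr. In S513A it was at 4.26 and 4.11, 7.28 and 7.06, and 7.83 and 7.66. All its stimulated libraries lay above all unstimulated ones. Nlrc5 rose 7.36-fold at 4 hr (2.88 ± 0.13, adjusted p = 1.68e-08) and 8.77-fold at 8 hr (3.13 ± 0.13, adjusted p = 1.25e-08).

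The immunoproteasome subunits rose together and, over both genotypes, were higher at 8 hr than at 4 hr. Psmb8 was 7.03 and 6.98 in unstimulated WT cells, 8.34 and 7.68 after 4 hr and 9.02 and 9.20 after 8 hr, and in S513A at 7.44 and 7.43, 8.32 and 8.78, and 8.53 and 9.26. Psmb9 was at 4.84 and 4.83, 6.35 and 5.94, and 7.11 and 7.26 in WT, and at 5.31 and 5.35, 6.46 and 6.86, and 6.68 and 7.41 in S513A. Psmb10 was at 6.30 and 6.33, 7.90 and 7.31, and 8.54 and 8.77 in WT, and at 6.93 and 6.73, 7.95 and 8.32, and 8.00 and 8.62 in S513A. For each subunit every stimulated library lay above every unstimulated one, and in S513A the 4 hr and 8 hr libraries overlapped. The S513A changes from 4 to 8 hr were 0.35 (Psmb8), 0.39 (Psmb9) and 0.18 (Psmb10) on the log2 scale and were not called. Over both genotypes the log2 changes at 4 hr were 1.06 ± 0.18 for Psmb8 (adjusted p = 0.000498), 1.32 ± 0.16 for Psmb9 (adjusted p = 3.58e-05) and 1.30 ± 0.16 for Psmb10 (adjusted p = 5.26e-05). At 8 hr Psmb8 was 3.44-fold higher (adjusted p = 1.33e-05), Psmb9 4.09-fold (adjusted p = 1.51e-06) and Psmb10 3.76-fold (adjusted p = 3.19e-06). Within WT, the 4 hr call of Psmb8 was lost without WT replicate 2 at 0 hr (adjusted p = 0.0514) or WT replicate 1 at 4 hr (adjusted p = 0.0672).

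**Figure D3:**
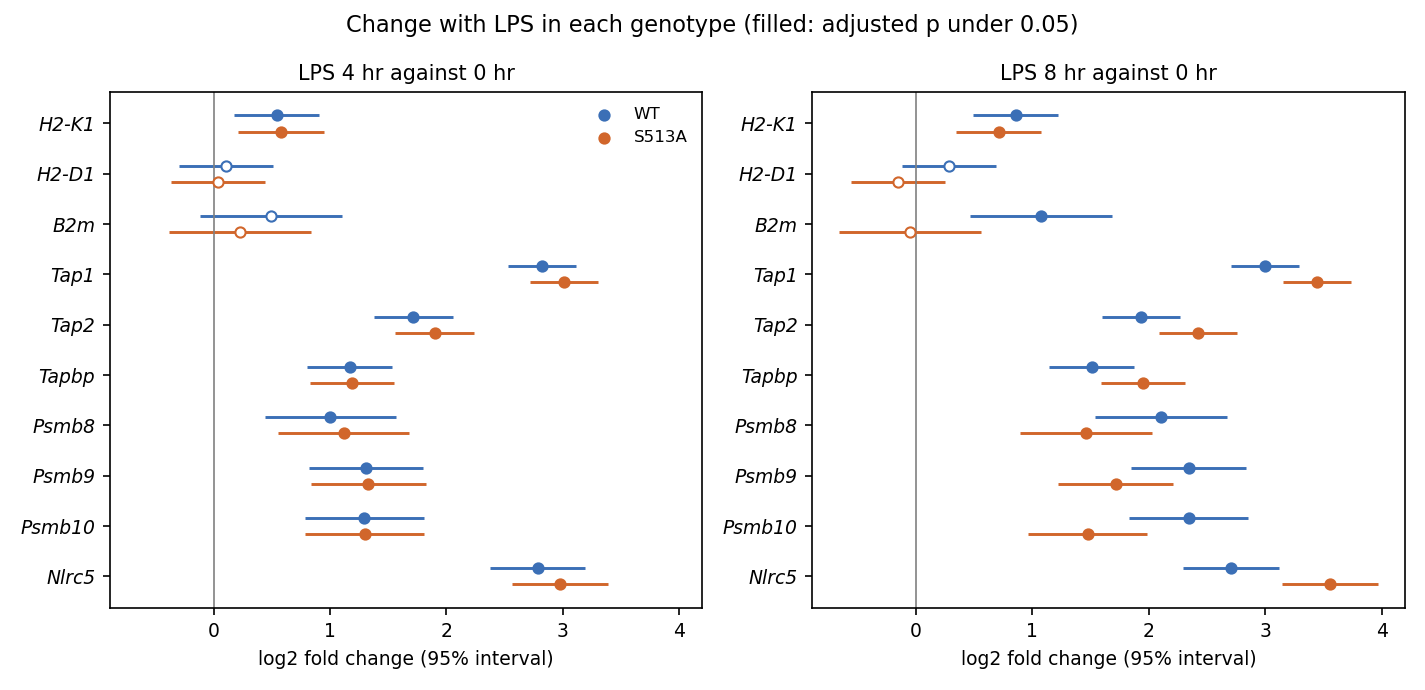
Log2 fold change (horizontal axis) of each of the 10 genes at 4 hr (left) and 8 hr (right) of LPS against 0 hr, in WT and S513A, with bars for the 95% confidence interval from limma and filled points where the adjusted p is under 0.05. Tap1 and Nlrc5 lie farthest right, at 2.71 to 3.56, and the intervals of H2-D1 include 0 in every comparison.

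From 4 to 8 hr, 6 genes were higher over both genotypes (Tap1, Tap2, Tapbp, Psmb8, Psmb9 and Psmb10), against 12.8% of all genes. In WT the called genes were Psmb8 (log2 1.10, adjusted p = 0.0174), Psmb9 (1.03, adjusted p = 0.0124) and Psmb10 (1.05, adjusted p = 0.0136), with 6.73% of genes called higher. In S513A they were Tap1 (0.44, adjusted p = 0.0445), Tap2 (0.52, adjusted p = 0.0393) and Tapbp (0.76, adjusted p = 0.0114), with 9.31% called higher. Whether the change from 4 to 8 hr differed between the genotypes was not tested. These later calls were the least stable of all. The count in WT was 0 without WT replicate 2 at 4 hr or either WT library at 8 hr, and that in S513A was 0 without S513A replicate 2 at 4 hr or S513A replicate 1 at 8 hr. Each of these fits leaves a single library in a group. Leaving out both of the 2 libraries named for their length difference leaves a single library in WT at 4 hr and in S513A at 8 hr. Calls of that fit are therefore not counted here.

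The ratio of each immunoproteasome subunit to the constitutive subunit it replaces was then taken within each library, where the library size cancels. For Psmb8 to Psmb5 the log2 ratio was -0.10 and -0.26 in WT and -0.12 and -0.16 in S513A at 0 hr, 0.50 and 0.54 in WT and 0.64 and 0.68 in S513A at 4 hr, and 0.90 and 1.04 in WT and 1.19 and 1.21 in S513A at 8 hr. Psmb9 to Psmb6 went from -3.32, -3.19, -3.14 and -3.00, in the same order of libraries, to -2.82, -2.76, -2.69 and -2.61 and then to -1.85, -1.88, -1.65 and -1.63. Psmb10 to Psmb7 went from -0.25, -0.29, 0.006 and -0.20 to 0.44, 0.55, 0.65 and 0.58 and then to 1.11, 1.14, 1.12 and 1.15. In none of the 3 ratios did the libraries of any 2 times overlap. At 8 hr the ratios were 2.37-fold (Psmb8 to Psmb5), 2.66-fold (Psmb9 to Psmb6) and 2.48-fold (Psmb10 to Psmb7) above 0 hr. From 4 to 8 hr they rose a further 1.41-fold, 1.95-fold and 1.49-fold. In S513A part of this rise lay in lower constitutive subunits, with log2 changes of -0.20 (Psmb5), -0.62 (Psmb6) and -0.34 (Psmb7). Psmb8, Psmb9 and Psmb10 changed there by 0.35, 0.39 and 0.18, and none of the 6 was called. In WT the constitutive subunits changed by 0.65, 0.11 and 0.42 and the immunoproteasome subunits by 1.10, 1.03 and 1.05. Each of the 9 comparisons of 4 against 4 libraries gave p = 0.0286 in a two-sided exact permutation test, the smallest this design can give, and 0.0286 after Benjamini-Hochberg adjustment over the 9. The genes of a pair differ in length and the values are not per kilobase, so only the change of a ratio is read, and not its level.

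**Figure D4:**
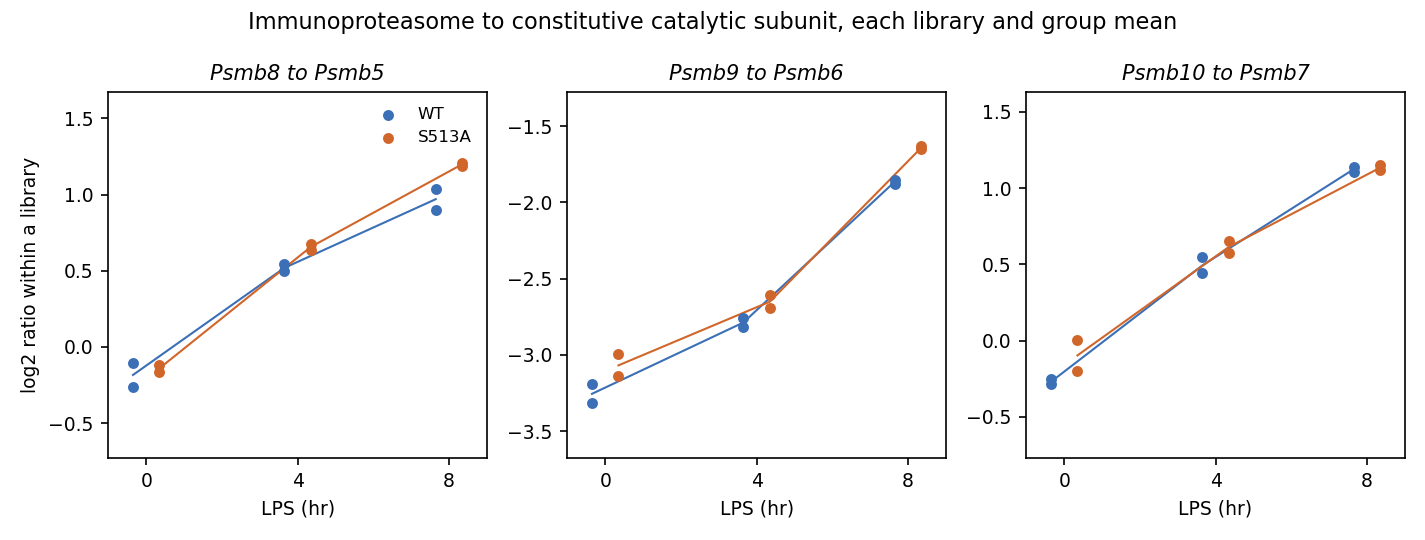
Log2 ratio of immunoproteasome to constitutive catalytic subunit (vertical axis) in each of the 12 libraries against hours of LPS (horizontal axis), by genotype, with 1 panel per pair. The libraries of 0, 4 and 8 hr form separate bands in every panel, with means of -0.16, 0.59 and 1.08 for Psmb8 to Psmb5.

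The ratios moved little when these 2 libraries were left out. Without both, the 8 hr changes were 1.21, 1.38 and 1.32 on the log2 scale for the Psmb8, Psmb9 and Psmb10 pairs, against 1.25, 1.41 and 1.31 with them, although 3 against 4 libraries cannot give a p below 0.0571. Within WT the 8 hr changes were 1.15, 1.39 and 1.39, and within S513A 1.34, 1.43 and 1.23. Transcript lengths in each pair are 1628 and 899 bases for Psmb8 and Psmb5, 1352 and 798 for Psmb9 and Psmb6, and 1311 and 1160 for Psmb10 and Psmb7.

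The constitutive catalytic subunits were called higher at 8 hr in WT and not in S513A. Psmb5 was higher in WT by 0.95 on the log2 scale (0.12 in S513A), Psmb6 by 0.95 (0.29) and Psmb7 by 0.95 (0.24), and the interaction terms of -0.83, -0.66 and -0.70 did not pass (adjusted p = 0.237, 0.258 and 0.264). Over both genotypes Psmb5 was higher by 0.54 on the log2 scale (adjusted p = 0.0299), Psmb6 by 0.62 (adjusted p = 0.00781) and Psmb7 by 0.60 (adjusted p = 0.0146). Of 11 other subunits of the proteasome core, 9 were higher and 0 lower (24.5% and 21.6% of all genes), with a median of 0.68. In WT 10 were higher (19.4% of all genes), with a median of 1.13, and in S513A 1, Psma5 (20.9%), with a median of 0.22. All 11 interaction terms at 8 hr were below 0, with none past the test, which 0% of all genes passed. Psmb5, Psmb6 and Psmb7 (798 to 1160 bases) fall in the shortest length class. Over all genes of that class the median difference of S513A from WT was 0.29 at 0 hr and -0.35 at 8 hr. The part of length in these terms was not tested. Over both genotypes the list was led by Psma5 (1.43), Psma6 (0.89), Psma3 (0.79) and Psma2 (0.76). From 4 to 8 hr none of these catalytic and core subunits was called over both genotypes or in S513A, and in WT Psma5 was (0.85, adjusted p = 0.0386). Among 9 genes of proteasome activators and assembly factors 4 were higher at 8 hr and 0 lower over both genotypes, 7 higher in WT and 4 in S513A. The 4 were Psme2 (2.17) and Psme1 (1.29), which form the PA28 cap, Psme4 (0.58) and Psme3 (0.34).

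Genes around the peptide-loading step were mixed. Of 13 trimming and loading genes 6 were higher and 1 lower at 8 hr (24.5% and 21.6% of all genes), with a median of 0.25. Tapbpl, a tapasin relative that edits peptides, was higher by 1.98 (adjusted p = 4.01e-08), Erap1, the peptidase that trims peptides in the endoplasmic reticulum, by 0.84 (adjusted p = 2.83e-06), Lap3 by 0.78 and Tpp2 by 0.39. Pdia3, a disulfide isomerase of the loading complex, fell by 0.27 (adjusted p = 0.0198), and the chaperones Calr (-0.08) and Canx (0.14) were not called. Other class I and class I-like genes were listed for 17 of 32, of which 10 were higher and 3 lower at 8 hr, with a median of 1.13. H2-Q6 (3.04), H2-M2 (2.70), H2-Q4 (2.68) and H2-Q7 (2.60) led, and these paralogs are uncertain because near-identical copies share reads. H2-M3, which presents formylated peptides, was higher by 1.13. Mr1 (-1.08), which presents vitamin metabolites, Hfe (-1.56), an iron regulator, and Fcgrt (-1.08), the neonatal Fc receptor, were lower.

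Among 18 listed regulators of these genes 11 were higher and 0 lower at 8 hr, with a median of 1.16. Irf7 (4.17), Irf1 (2.89) and Stat2 (2.52), which carry interferon responses, were among them. Of the RFX and NF-Y subunits that hold NLRC5 at class I promoters, Rfx5 rose by 1.21 (adjusted p = 0.000156), whereas Rfxap (-0.21), Rfxank (0.02), Nfya (0.0005), Nfyb (0.12) and Nfyc (0.06) were not called. Ifng, the gene of interferon-γ, had 0 reads in all 4 unstimulated libraries, 8 to 17 reads at 4 hr and 18 to 21 at 8 hr, at least 6.90-fold higher at 8 hr and at least 4.18-fold at 4 hr against a floor of 3 reads per library. T and NK cell markers were at 1.11 to 2.64 CPM in sum, with Cd3e not listed. Ifnb1 is not among the listed genes. Genes of MHC class II, which presents peptides to CD4+ T cells, had 2 members higher and 3 lower of 12 tested at 8 hr and a median of -0.12, counts near the 24.5% and 21.6% over all genes. H2-Oa was higher by 1.55, from a mean of -1.52 log2 CPM in WT and -0.74 in S513A at 0 hr. These are near the floor of 3 reads (-2.04 to -1.30 over the libraries). The class II activator Ciita was higher by 0.40 over both genotypes, from -0.05 in WT and 0.84 in S513A (interaction 0.90, adjusted p = 0.193). Lgmn (-1.68), Ifi30 (-1.17) and H2-DMa (-0.80) were lower.

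To ask whether the S513A knock-in changed the class I genes, S513A was compared with WT at each time. None of the 10 passed the test at 0, 4 or 8 hr, where 0.0337%, 0.0168% and 0.0337% of all genes were called, nor over the mean of times (0.0673%). Fitted on the 4 libraries of 0 hr alone, B2m, Psmb8, Psmb9 and Psmb10 were called at 0 hr (adjusted p = 0.0403 to 0.0444 in limma), with the same differences. The share of all genes called in that fit is not given here, so the 4 calls are not read as particular to these genes. Their transcripts (860 to 1628 bases) fall in the shortest length class, whose median over all genes was 0.29 higher in S513A at 0 hr. The lowest adjusted p among the 10 in the fit of all 12 libraries was 0.586, 0.622 and 0.395, in order of time. At an unadjusted p under 0.05, 2 passed at 0 hr (B2m and Psmb10), 2 at 4 hr (Psmb9 and Psmb10), 4 at 8 hr (Tap1, Tap2, Tapbp and Nlrc5) and 1 over the mean (Psmb9), against 949, 833, 1487 and 798 of all 11885 genes. No gene of the other lists was called between genotypes. Intervals were wide, as for B2m at 0 hr, where the S513A to WT difference was 0.70 on the log2 scale with a 95% interval of 0.09 to 1.31.

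**Figure D5:**
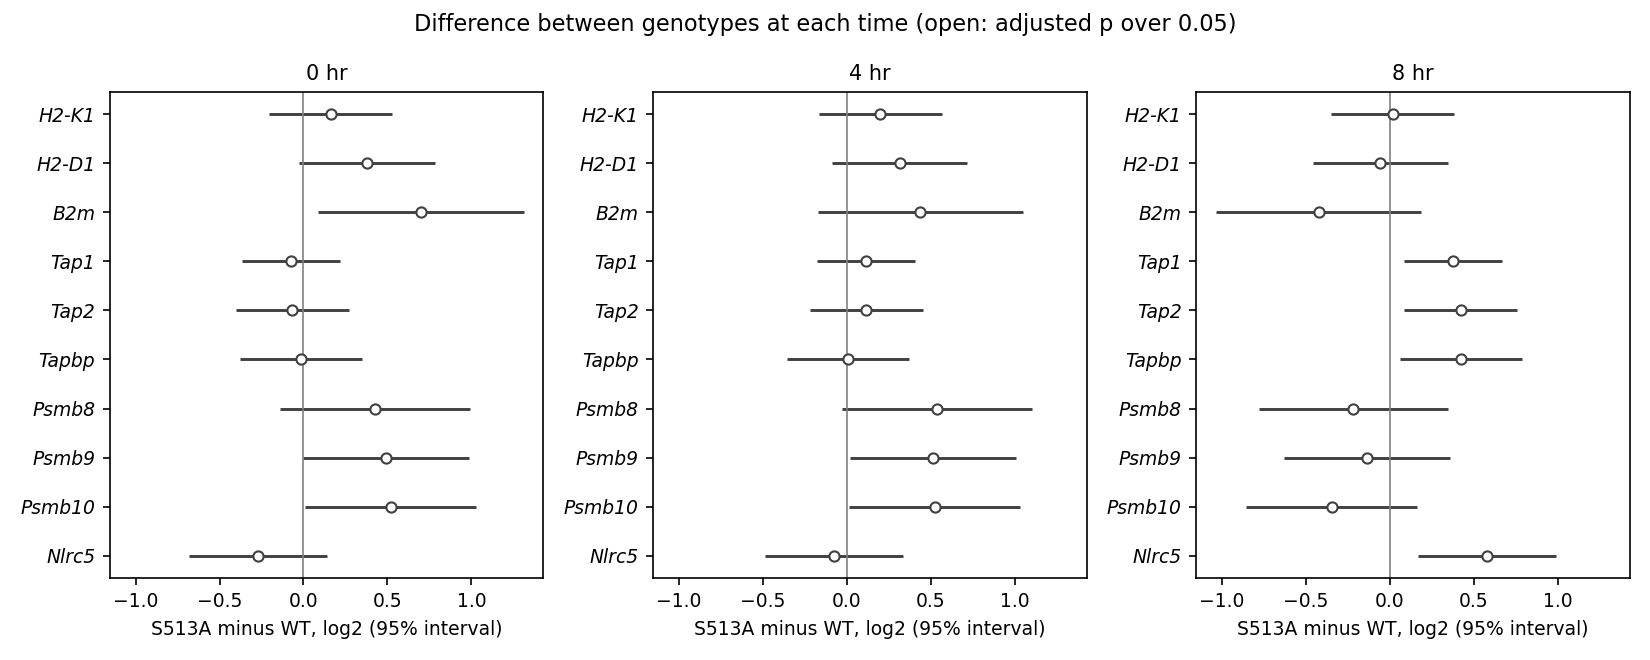
Log2 difference of S513A from WT (horizontal axis) for the 10 genes at 0, 4 and 8 hr, with bars for the 95% confidence interval from limma. H2-D1, B2m, Psmb8, Psmb9 and Psmb10 lie right of 0 at 0 hr and left of it at 8 hr. Tap1, Tap2, Tapbp and Nlrc5 do the reverse, H2-K1 stays right of 0, and none passed the test after adjustment.

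The libraries of the 2 genotypes did not overlap for 6 of the 10 genes at 0 hr (57.5% of all genes), 3 at 4 hr (28.2%) and 5 at 8 hr (53.6%), shares close to those over all genes. At 0 hr these were H2-D1 (S513A minus WT 0.38), B2m (0.70), Psmb8 (0.42), Psmb9 (0.49) and Psmb10 (0.52), all higher in S513A, and Nlrc5 (-0.27), lower in S513A. At 4 hr they were H2-D1 (0.31), Psmb9 (0.51) and Psmb10 (0.52), higher in S513A. At 8 hr they were Tap1 (0.37), Tap2 (0.42), Tapbp (0.42) and Nlrc5 (0.58), higher in S513A, and B2m (-0.43), lower. Neutrophil markers summed to 20.3 to 35.4 CPM in WT and 51.1 to 54.2 in S513A at 0 hr, and to 84.2 to 102 and 33.5 to 86.9 at 8 hr. These sums lay almost wholly in 1 gene, S100a8. Its means were 4.74 log2 CPM in WT and 5.72 in S513A at 0 hr, and 6.49 and 5.69 at 8 hr. S100a8 was not called between genotypes, and the part of neutrophils was not tested. Transcript length moved with the differences too. Over all genes the median difference of S513A from WT ran from 0.29 in the shortest class to -0.15 in the longest at 0 hr, and from -0.35 to 0.21 at 8 hr. The genes named here as higher in S513A at 0 hr have transcripts of 860 to 2102 bases, and those higher at 8 hr 2898 to 7578. With the trend on length and GC content removed, the B2m difference was 0.16 at 0 hr and 0.13 at 8 hr, and that of Nlrc5 0.004 and 0.34.

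The LPS response itself was compared between genotypes by an interaction term, the S513A change minus the WT change. It called 0 of the 10 at 4 and at 8 hr, and 0% of all genes in limma, where 0 and 5 of the 10, and 144 and 2405 of all genes, had an unadjusted p under 0.05. At 8 hr the largest terms were those of B2m (-1.12, adjusted p = 0.197), Psmb10 (-0.87, adjusted p = 0.206) and Nlrc5 (0.85, adjusted p = 0.193), with Psmb8 at -0.64, Psmb9 at -0.63, Tap2 at 0.49 and Tap1 at 0.45. Psmb10 rose by 2.34 in WT and 1.48 in S513A, and Nlrc5 by 2.71 and 3.56. The B2m term was -0.83 without the same 2 libraries, which leaves a single library in S513A at 8 hr. It was -0.03 (adjusted p = 0.943) with the trend on length and GC content removed. The Nlrc5 term was 0.76 and 0.33 (adjusted p = 0.276) in turn. Psmb8, Psmb9 and Psmb10 (1311 to 1628 bases) fall in the shortest length class too. Their terms with the trend removed are not given here, and the part of length in them was not tested.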

How the data were processed

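RNA-seq libraries of WT and S513A PECs at 0, 4 and 8 hr of LPS were grouped by their labels. The authors mapped reads to mm10 with HISAT2 (paired-end, unstranded), counted them with featureCounts 1.6.3 and deposited log2 CPM values. The annotation, gene filter and program behind them are not given in the sources used here. Each deposited log2 value equals the log2 CPM of reads plus 0.5 over an effective library size, and 100% of values gave whole reads (tolerance 0.01 read). The intervals given come from limma and rest on the spread between libraries.

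The log2 values were fitted in R 4.3.3 by limma 3.58.1 (6 group means, 6 residual degrees of freedom, prior following the mean), for the 11885 genes that reached 1 CPM in 2 libraries or more, two-sided, with Benjamini-Hochberg adjustment over all genes tested and a threshold of 0.05. Fold changes are on the scale of log2 of reads plus 0.5. The model was tested on simulated data. Ratios were tested with scipy 1.17.1. Tables and plots used Python 3.11.15, pandas 2.3.3 and matplotlib 3.10.9. Lengths and positions came from the GRCm38 annotation for 93.1% of listed genes, and promoters from RefSeq. The members, gene lists and tests were chosen with earlier results of these data known. Every member is named. From other lists, the up to 4 genes with the largest change at 8 hr among those passing are named, with those of a textbook role. A gene of the regulator list is not reported here. Genes of like pattern are the 5 with the highest Pearson r to the mean of the members and the 1 nearest to each member. Alternatives were no filter, a stricter filter (mean of 5 CPM), a pseudocount of 1, median-ratio scaling, quantile normalization, replicate blocks, correlated libraries, other priors, only the groups compared, each library left out, and the 2 additions named in the results.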

Additional observations from a re-analysis of the deposited data

Results flagged for a closer look

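B2m and Nlrc5 were picked out because every S513A library lay on one side of the WT libraries at 0 hr and on the opposite side at 8 hr. For B2m, S513A was above WT at 0 hr and below it at 8 hr, and the change of the difference was -1.12 on the log2 scale. For Nlrc5, S513A was below WT at 0 hr and above it at 8 hr, and the change was 0.85. Such a change of sides was shown by 29.1% of all genes tested. The interaction in limma gave adjusted p = 0.197 for B2m and 0.193 for Nlrc5, so neither passed. B2m has the shortest transcript of the members (860 bases) and Nlrc5 the longest (7578), and the part of transcript length in the pair was not tested beyond the values without its trend (-0.03 and 0.33). Dixon's test for an outlying value called no library in 39 sets of 4 libraries. Sets of 4 are too small for this test to show that no library stands apart. At 8 hr S513A replicate 1 was at 11.40 log2 CPM for B2m, against 12.00, 12.05 and 12.19 in the other libraries. For Nlrc5 it was at 7.83, against 7.66, 7.18 and 7.15.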

How the results depend on the processing

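The LPS calls at 4 and 8 hr against 0 hr were the most stable and those from 4 to 8 hr the least. Of the recomputed values of the main results, 482 kept direction and side of the threshold or stayed within 1.5 times the count, and 18 did not. Of single-gene values 3624 did not change their call, 76 lost it, 36 gained it and 4 changed sign. The changed signs were H2-D1 at 4 hr against 0 hr under quantile normalization (-0.47 in WT and -0.40 over both genotypes) and B2m in S513A with the trend on length and GC content removed (0.44 at 8 hr against 0 hr and 0.47 at 8 hr against 4 hr). With that trend removed, 5 members in place of 3 were called in WT from 4 to 8 hr. The share of all genes called with it removed is not given here. In S513A from 4 to 8 hr the count was 1 with a replicate block, 1 with the block within genotype, 1 with a prior without a trend and 0 with only the groups compared. With only the groups compared, S513A against WT at 0 hr called 4 members (B2m, Psmb8, Psmb9 and Psmb10) in place of 0. No share of all genes is given for that fit. The cause of these moves was not tested.

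With each library left out in turn, the members called at 4 hr against 0 hr numbered 6 to 9 in WT, 7 to 8 in S513A and 8 to 9 over both genotypes, and at 8 hr against 0 hr 8 to 9, 7 to 8 and 8 to 9. From 4 to 8 hr the counts ran from 0 to 4 in WT, 0 to 4 in S513A and 2 to 7 over both, where the count was 2 without WT replicate 2 at 8 hr and 3 without S513A replicate 1 at 4 hr. In S513A it was 1 without either S513A library at 0 hr, either WT library at 8 hr or S513A replicate 2 at 8 hr. Contrasts between genotypes and interactions stayed at 0 to 0. The H2-K1 call at 4 hr was lost in WT without WT replicate 2 at 0 hr or replicate 1 at 4 hr, and in S513A without S513A replicate 1 at 0 hr or replicate 2 at 4 hr. At 8 hr it was lost in S513A without replicate 1 at 0 hr (adjusted p = 0.0524 in limma). B2m over both genotypes at 8 hr was called without any 1 of 5 libraries, S513A replicate 1 at 8 hr (0.66) and each of the 4 hr libraries.

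Whether same-numbered replicates share mice is not stated. The correlations of their deviations between groups ran from -0.749 (WT 4 hr with S513A 8 hr) to 0.760 (S513A 4 hr with S513A 8 hr). The deviations carry the differences by transcript length, so they cannot decide whether replicates are paired, and the block is not read as a pairing. Depth limits genes of the other lists, such as Ifng (0 to 21 reads), H2-Oa, H2-Q1 and H2-Q2, and no member. The mean of H2-Q1 was -3.31 log2 CPM in WT at 4 hr, and that of H2-Q2 was -3.21 in S513A at 8 hr.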

Other observations

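Across the 12 libraries, the genes outside the group whose log2 CPM followed the mean of the 10 members most closely were Tifa (Pearson r = 0.992), an adaptor of NF-kB signaling, Ly6c2 (0.992), a monocyte surface antigen, Ube2l6 (0.991), the conjugating enzyme of ISG15, Chordc1 (0.991) and the transcript AW112010 (0.990). Psme1, a subunit of the PA28 cap, was nearest to each of the 3 immunoproteasome subunits (r = 0.994 for Psmb8, 0.996 for Psmb9 and 0.995 for Psmb10). Oasl2 was nearest to Tap1 (0.998), Parp10 to Tap2 (0.993), Clcn7 to Tapbp (0.996), Msn to Nlrc5 (0.997), Tifa to H2-K1 (0.991), Pomp to B2m (0.988) and Atg3 to H2-D1 (0.952). Within the group r was 0.99 for Tap1 with Nlrc5 and 0.05 for H2-D1 with Nlrc5. These points share libraries, and depth and the spread by transcript length move with them, so they describe these libraries only.

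The letters TGACG and ATTGG with 20 bases between them were in the promoter windows of 27 genes, of which 20 are listed. They included H2-M3 beside H2-K1, H2-D1 and B2m, and no other gene of the class I, loading or regulator lists. These windows are those of the RefSeq table alone.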
